A study of Mus musculus with 10 samples.

Results

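Genes that mark the excitatory neurons of the forebrain were followed in the hippocampus of mice with and without neuronal overexpression of PGC-1α. The 9 genes are Slc17a7, Camk2a, Camk2b, Camk4, Neurod1, Neurod2, Neurod6, Tbr1 and Nrgn, out of 17593 named genes tested. The rule that chose them used gene names and no measured value, although earlier results of these data were known, and every array probe whose RefSeq transcript belongs to one of them was taken. This gave 13 probes of the 56605 on the array, and 11 of them passed the filter on dim and missing values.

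The 2 groups each had 5 male mice of 12 weeks, as the labels give them, and 1 array per mouse. PGC-1αf/f mice carry a PGC-1α transgene in the Rosa26 locus behind a floxed PGK-neo-STOP cassette, and they have no Cre. nPGC-1α mice carry the same allele together with Eno2-Cre, in which the promoter of the pan-neuronal gene Eno2 drives the recombinase, so that inhibitory and excitatory neurons are both expected to be targets. Both groups were unoperated and were kept on a C57BL/6 background, and whole hippocampal RNA labelled with Cy3 was hybridised to Agilent mouse arrays. The question here is whether the genes that give excitatory neurons their identity had another RNA level in nPGC-1α hippocampus than in PGC-1αf/f hippocampus.

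Excitatory neurons of the hippocampus and cortex load glutamate into synaptic vesicles through VGLUT1, the product of Slc17a7. Calcium that enters at their synapses binds calmodulin, and the calcium/calmodulin kinases then act at the synapse, as CaMKII does, or in the nucleus, as CaMKIV does on CREB. Neurogranin, the product of Nrgn, is a postsynaptic protein that binds calmodulin when calcium is low. The NeuroD factors and Tbr1 are transcription factors of the forebrain excitatory lineage, and they bind E-box and T-box sequences respectively. In RNA from whole tissue, fewer cells of a type and less RNA per cell cannot be told apart.

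The stretches of 250 bases before the RefSeq start sites (assembly GRCm38.p6) are shown for 4 of the members, because Slc17a7, the second Camk2b probe and Nrgn were lowest on the same 2 arrays and because the last pair are the members with a NeuroD E-box there. Windows were found for 7 of the 9 genes, not for Camk2a and Camk4. Capitals mark the NeuroD E-box, CAGATG or its reverse complement CATCTG, and the core of the CREB site, TGACG or its reverse complement CGTCA. Within a strand pair the forms overlap each other only in the full CREB site TGACGTCA, and each NeuroD E-box is also a general E-box, CANNTG. All 4 sequences run 5′ to 3′ on the strand of the gene, which is + for Slc17a7 at chr7:45163671-45163920 and - for Camk2b at chr11:6065749-6065998, Nrgn at chr9:37552746-37552995 and Neurod2 at chr11:98329646-98329895.
Slc17a7: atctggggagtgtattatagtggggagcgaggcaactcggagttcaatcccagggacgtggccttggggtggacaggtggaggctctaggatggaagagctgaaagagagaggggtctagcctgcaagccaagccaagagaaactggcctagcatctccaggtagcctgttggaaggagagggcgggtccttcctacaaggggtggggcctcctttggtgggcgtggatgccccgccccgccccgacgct
Camk2b: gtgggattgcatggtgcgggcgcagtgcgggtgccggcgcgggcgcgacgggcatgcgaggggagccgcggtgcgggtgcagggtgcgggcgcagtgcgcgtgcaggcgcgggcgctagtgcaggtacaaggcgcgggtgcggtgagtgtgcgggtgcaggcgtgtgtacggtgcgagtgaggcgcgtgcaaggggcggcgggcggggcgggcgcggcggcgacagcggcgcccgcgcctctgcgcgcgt
Nrgn: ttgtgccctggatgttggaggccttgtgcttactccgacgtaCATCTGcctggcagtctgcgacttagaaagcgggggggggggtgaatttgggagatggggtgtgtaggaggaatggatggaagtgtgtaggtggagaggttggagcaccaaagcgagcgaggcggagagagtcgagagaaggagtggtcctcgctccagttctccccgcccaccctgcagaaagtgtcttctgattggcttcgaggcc
Neurod2: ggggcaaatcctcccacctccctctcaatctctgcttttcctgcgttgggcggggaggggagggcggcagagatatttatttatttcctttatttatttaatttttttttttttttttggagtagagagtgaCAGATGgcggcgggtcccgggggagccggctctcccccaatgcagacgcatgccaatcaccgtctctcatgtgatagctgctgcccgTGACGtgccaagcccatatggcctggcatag

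The NeuroD E-box began 118 bases before the Neurod2 start and 208 bases before the Nrgn start, and 14.4% of all 32851 windows hold one. The core of the CREB site stood once before Neurod2 and in 17.8% of all windows, and the full CREB site in none of the 7 member windows and in 1.55% of all. The general E-box was present in 66.2% of all windows. It was found 3 times before Neurod2, 2 times before Neurod6, once each before Slc17a7, Neurod1, Tbr1 and Nrgn, and not at all before Camk2b. The T-box core GGTGTG, or CACACC on the other strand, stood once each before Neurod6 and Nrgn and in 16.3% of all windows. The windows of Slc17a7 and Camk2b had 61.2% and 78.4% G and C, against a median of 52.4% over all windows. These are matches of letters and nothing was measured at these places.

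Checks of the labels came first. Ppargc1a, which encodes PGC-1α, had a log2 level of 2.20 ± 0.08 (SD, n = 5) in PGC-1αf/f and 2.20 ± 0.11 (SD, n = 5) in nPGC-1α mice, a difference of 0.00 (limma, adjusted p = 0.990). The files used here do not say where the Ppargc1a probe lies relative to the transgene, so that it cannot be said whether this probe would read it. PGC-1αf/f and nPGC-1α therefore stand throughout for arrays labelled so, and each direction below rests on those labels. Eno2, the gene whose promoter drives Cre, differed by -0.03 (adjusted p = 0.909). Transcripts of Y-linked genes were well above background on 4 arrays (nPGC-1α replicates 1, 3 and 5 and replicate 1 of PGC-1αf/f) and not on the other 6, although all 10 are labelled male. The share of gene spots well above background was 74.5% to 81.5% in the PGC-1αf/f group and 67.2% to 73.4% in the nPGC-1α group. One slide held replicates 1 to 4 of both groups and another held replicate 5 of both, and on the first slide the row of the array and the group cannot be told apart. The labels call the cell type neuron, but all 8 astrocyte markers and all 9 oligodendrocyte markers also cleared the background on each of the 10 arrays, so that glial RNA was present.

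A level is given as the log2 of the processed intensity of a probe over the 75th percentile of its array, so that 0 is the brightness of that percentile. Levels are compared for one probe between arrays and not between probes. All 11 tested member probes were well above background on all 10 arrays. None of the 11 passed an adjusted p of 0.05 in limma, where 0.00255% of all 39142 probes did, and their adjusted p-values ran from 0.386 to 0.995. At an unadjusted p of 0.05, 1 of the 11 passed, a probe of Camk2b, against 11.9% of all probes. Of the 11, 5 were higher and 6 lower in nPGC-1α mice. The groups did not overlap for 0 of the 8 member probes with a value on every array, where 2.74% of all such probes had groups that did not overlap. The median difference of the 9 genes was -0.02 and their mean was 0.06, and the median over all tested probes was -0.04. The sign of that member median turned under some other scalings. With quantile normalisation it was 0.08, and the median over all tested probes turned as well, to 0.03.

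**Figure D1:**
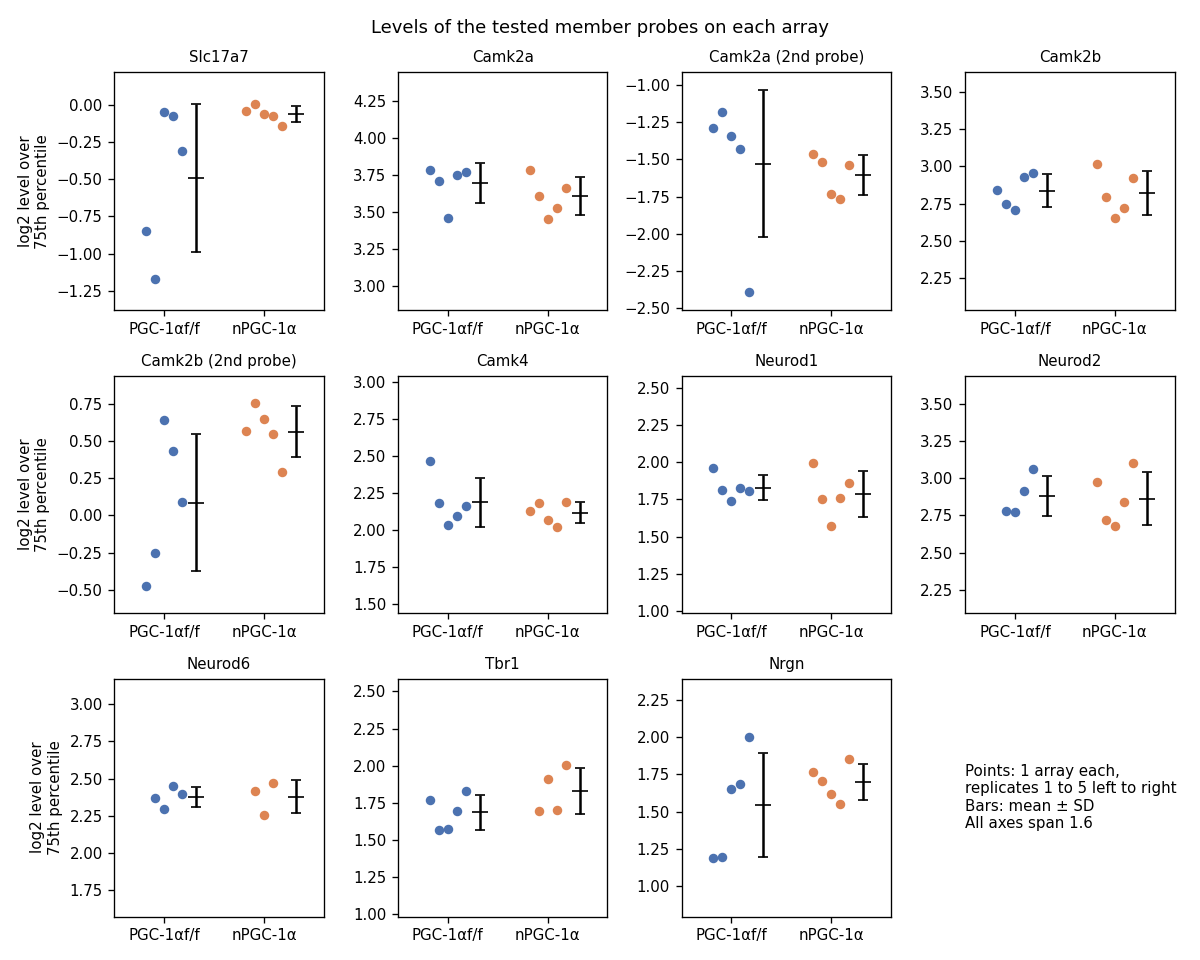
Log2 level over the 75th percentile of the array (vertical axis) for the 11 tested member probes, with 1 point per array in each group and the mean ± SD as a black bar. PGC-1αf/f replicates 1 and 2 sit lowest for Slc17a7, the second Camk2b probe and Nrgn, and the groups overlap in every panel.

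Slc17a7 had the widest gap between the groups among the probes that stand for a gene, but it rested on 2 arrays. Its level in PGC-1αf/f replicates 1 to 5 was -0.85, -1.17, -0.05, -0.08 and -0.31. In nPGC-1α replicates 1 to 5 it was -0.04, 0.00, -0.06, -0.07 and -0.14. PGC-1αf/f replicates 3, 4 and 5 thus lay at or near the tight nPGC-1α range, and replicates 1 and 2 lay far below it. The means were -0.49 ± 0.50 and -0.06 ± 0.05 (SD, n = 5 each). The difference of 0.43 (SE 0.20, 95% interval -0.02 to 0.87, a fold of 1.35 with an interval of 0.987 to 1.83) did not pass the test, with an unadjusted p of 0.0588 and an adjusted p of 0.441 in limma. The exact permutation test gave p = 0.0794, two-sided, in a design of 5 against 5 whose lowest attainable p is 0.00794. Without PGC-1αf/f replicate 2 the difference was 0.26, and without both replicates 1 and 2 it was 0.08 (adjusted p = 0.950). Of 25 alternatives, 6 gave an unadjusted p under 0.05, and no adjusted p was below 0.254. The lowest unadjusted p was 0.0234 in limma, without PGC-1αf/f replicate 3.

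Camk2a encodes the α subunit of CaMKII, a kinase abundant in excitatory neurons of the forebrain, and it was measured by a pair of probes assigned to different transcripts. The brighter probe, A_52_P189707, had levels of 3.79, 3.71, 3.46, 3.75 and 3.77 in PGC-1αf/f replicates 1 to 5 and of 3.79, 3.61, 3.45, 3.53 and 3.66 in nPGC-1α replicates 1 to 5. The ranges of the groups overlapped almost wholly, but the medians were 3.75 and 3.61, and 1 of 5 nPGC-1α arrays lay above the PGC-1αf/f mean. The difference was -0.09 (SE 0.10, 95% interval -0.30 to 0.13, limma adjusted p = 0.742). The other probe, A_55_P2149209, differed by -0.08 (SE 0.21, adjusted p = 0.904). Its PGC-1αf/f replicate 5 stood at -2.39, below the other 4 arrays of that group at -1.43 to -1.18, whereas the nPGC-1α arrays ran from -1.76 to -1.47. The differences of this pair of probes lay 0.01 apart, but over the 10 arrays their levels had a Pearson r of 0.01 (permutation p = 0.905, Spearman rho 0.248).

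Camk2b encodes the β subunit of the same kinase, which also binds actin, and its pair of probes did not tell the same story although both are assigned to 1 transcript. The brighter probe, A_55_P2109377, ran from 2.71 to 2.96 in PGC-1αf/f (median 2.84) and from 2.65 to 3.02 in nPGC-1α mice (median 2.80). Its difference was -0.02 (SE 0.10, 95% interval -0.23 to 0.20, adjusted p = 0.961). The second probe, A_55_P2150578, had levels of -0.48, -0.25, 0.64, 0.43 and 0.09 in PGC-1αf/f replicates 1 to 5. In nPGC-1α replicates 1 to 5 its levels were 0.57, 0.76, 0.65, 0.55 and 0.30. As for Slc17a7, replicates 1 and 2 of PGC-1αf/f were the lowest, and replicates 3 and 4 lay inside the nPGC-1α range. The means were 0.09 ± 0.46 and 0.56 ± 0.17 (SD, n = 5 each), a difference of 0.48 (SE 0.20, 95% interval 0.04 to 0.92) with an unadjusted p of 0.0365 and an adjusted p of 0.386 in limma. The exact permutation test gave p = 0.0714, and without both replicates 1 and 2 of PGC-1αf/f the difference was 0.18 (unadjusted p = 0.273). The unadjusted call was lost when any 1 of PGC-1αf/f replicates 1, 2 or 5 or nPGC-1α replicates 1, 2, 3 or 4 was left out, with unadjusted p-values of 0.0895, 0.0888, 0.0568, 0.0593, 0.0781, 0.0668 and 0.0566 in that order. The differences of both Camk2b probes lay 0.49 apart, where the median gap between probes of one gene was 0.19 over 5929 genes, and 13% of those genes had a gap at least as wide.

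Camk4 encodes CaMKIV, the nuclear kinase that phosphorylates CREB. Its tested probe, A_55_P2097206, ran from 2.03 to 2.46 in PGC-1αf/f (median 2.16) and from 2.02 to 2.19 in nPGC-1α mice (median 2.13), and differed by -0.07 (SE 0.10, 95% interval -0.28 to 0.14, adjusted p = 0.797). The second Camk4 probe, A_66_P108791, was not tested, because its spot was marked as an outlier on 4 arrays, which left 4 PGC-1αf/f values at -0.69 ± 0.32 (SD, n = 4) and 2 nPGC-1α values at 0.16 and 0.21. With the outlier spots kept, its difference was 0.64 (SE 0.17, unadjusted p = 0.00333, adjusted p = 0.201 in limma). The pair of Camk4 probes thus gave differences of opposite sign, and neither passed the adjusted test.

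Nrgn shared the low PGC-1αf/f arrays. Its level was 1.19, 1.20, 1.65, 1.69 and 2.00 in PGC-1αf/f replicates 1 to 5 and 1.77, 1.70, 1.62, 1.55 and 1.85 in nPGC-1α replicates 1 to 5. Replicates 1 and 2 of PGC-1αf/f were the lowest of the 10 arrays, and replicate 5 of that group was the highest. The difference was 0.15 (SE 0.16, 95% interval -0.19 to 0.50, adjusted p = 0.715), and without both low arrays it turned to -0.08 (adjusted p = 0.964).

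The NeuroD factors had nearly the same level in both groups. Neurod1, which in the hippocampus is needed to form dentate granule cells, ran from 1.74 to 1.96 in PGC-1αf/f (median 1.81) and from 1.57 to 2.00 in nPGC-1α mice (median 1.76). Its difference was -0.04 (SE 0.10, 95% interval -0.25 to 0.17, adjusted p = 0.881). Neurod2, a factor of maturing excitatory neurons, had means of 2.88 ± 0.14 (SD, n = 4) and 2.86 ± 0.18 (SD, n = 5), with 1 outlier spot left out, and differed by -0.02 (95% interval -0.28 to 0.24, limma adjusted p = 0.958). Neurod6, a marker of pyramidal neurons, differed by 0.00 (95% interval -0.25 to 0.25, limma adjusted p = 0.995) on 4 PGC-1αf/f and 3 nPGC-1α values, since 3 spots were outliers. With these spots kept, Neurod6 differed by 0.09 and Neurod2 by 0.03, and neither passed (adjusted p = 0.729 and 0.941).

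Tbr1, a T-box factor of glutamatergic neurons, had levels of 1.56 to 1.83 in PGC-1αf/f (median 1.70) and of 1.70 to 2.01 in nPGC-1α mice (median 1.81), with 1 nPGC-1α spot left out. The difference was 0.14 (SE 0.11, 95% interval -0.10 to 0.38, adjusted p = 0.623). All 4 nPGC-1α values lay above the PGC-1αf/f mean. The second Tbr1 probe, A_55_P2713510, cleared the background on 2 of 5 PGC-1αf/f arrays and on 0 of 5 nPGC-1α arrays, and no test was run on it.

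**Figure D2:**
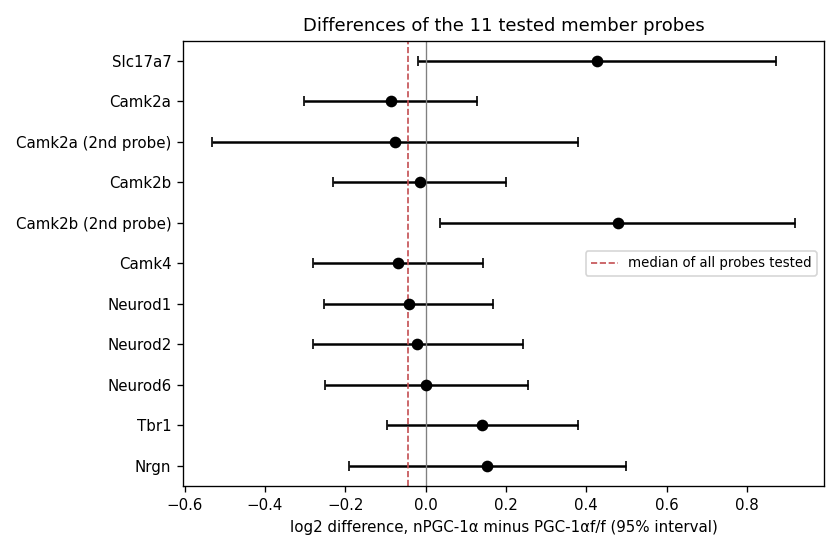
Log2 difference, nPGC-1α minus PGC-1αf/f (horizontal axis), of the 11 tested member probes with 95% intervals from limma, and the median of all tested probes at -0.04 as a dashed line. The interval of the second Camk2b probe, 0.04 to 0.92, does not include 0, and those of the other 10 probes do.

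The 2 arrays that set Slc17a7 apart were then followed across all probes. Replicate 1 had 10.5% outlier spots and the lowest 75th percentile of all arrays, whereas replicate 2 had 2.81% outlier spots. The part of spot quality in the low values was not tested. PGC-1αf/f replicates 1 and 2 were both below the other 8 arrays for 3 of the 8 member probes with a value on every array, or 37.5%, against 5.06% of all such probes. They were both above the other 8 for 1 of the 8, the tested Camk2a probe A_55_P2149209, against 14.6% of all probes. These 2 arrays were picked after their values had been seen, and these shares are a description. Of the marker lists, those of astrocytes, microglia and inhibitory neurons put both arrays at the same extreme, by narrow margins. The mean deviation of 8 astrocyte markers was 0.28 on replicate 1 and 0.09 on replicate 2, against -0.15 to 0.06 on the other 8 arrays, and that of 6 microglia markers was 0.21 and 0.09, against -0.17 to 0.089. The 11 inhibitory neuron markers stood at -0.05 and -0.18, against -0.03 to 0.10, so that this neuronal list was lowest on both. The mean deviation of 8 thalamic and habenular markers was -0.21 on replicate 1 and 0.82 on replicate 2, against -0.35 to 0.02 on the other 8 arrays. The 8 pan-neuronal genes stood at 0.14 and -0.08, against -0.11 to 0.09, so that this list was not low on both. Neocortical markers stood at 0.11 and -0.10, endothelial markers at 0.12 and -0.09 and choroid plexus markers at -0.80 and 0.89, with opposite signs on the pair. Oligodendrocyte markers stood at -0.41 and -0.12, with nPGC-1α replicate 1 at -0.30 and PGC-1αf/f replicate 5 at -0.17. The part of these lists in the low member values was not tested.

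**Figure D3:**
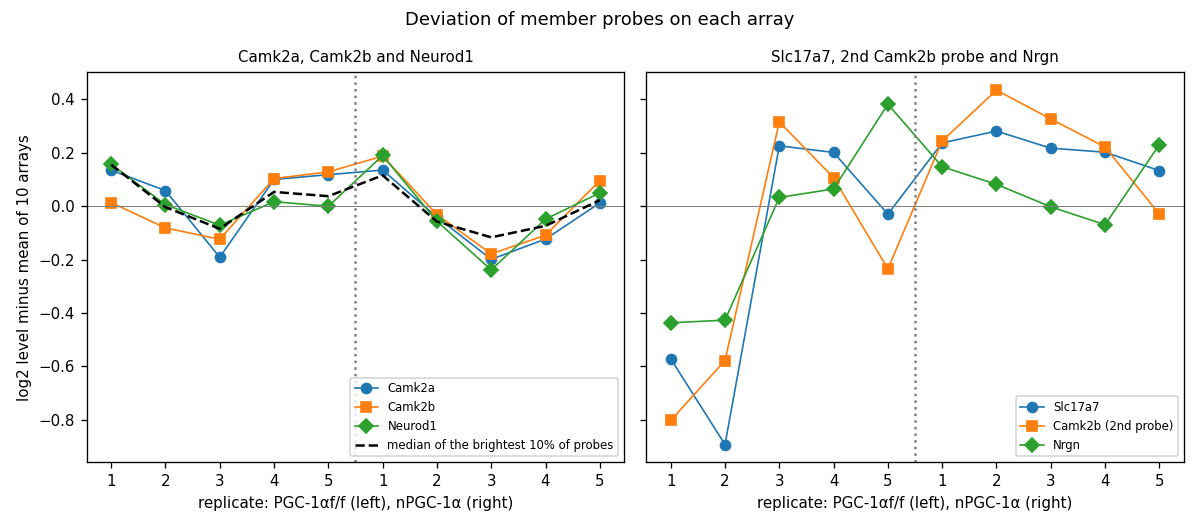
Deviation of the log2 level from the mean of the 10 arrays (vertical axis) by array, for Camk2a, Camk2b and Neurod1 with the median of the brightest 10% of probes as a dashed line (left), and for Slc17a7, the second Camk2b probe and Nrgn (right). The left probes follow the dashed line within 0.2, and the right probes fall by more than 0.4 on PGC-1αf/f replicates 1 and 2.

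The members did not vary as one block from mouse to mouse. Over the 55 pairs of tested probes, Pearson's r between arrays ran from -0.771 to 0.909 with a median of 0.094, and 34 were above 0. That median depended on the scaling, being 0.347 under quantile normalisation, and it was 0.134 on the 8 arrays of the first slide. The strongest pair was Slc17a7 with the second Camk2b probe, with r = 0.909 (permutation p = 0.0034, adjusted p = 0.0631) and Spearman's rho = 0.939 (adjusted permutation p = 0.0121). Without the 2 arrays farthest from the Slc17a7 median the r was 0.943, and on the 8 arrays of the first slide it was 0.935. For each pair that follows, the 2 farthest arrays are those farthest from the median of the gene named first. Camk2a moved with Neurod1, with r = 0.828 (permutation p = 0.00044, adjusted p = 0.0242) and rho = 0.879 (adjusted permutation p = 0.0326), with r = 0.714 without the 2 farthest arrays and 0.874 on the first slide. Under quantile normalisation that r was 0.099, whereas the r of Slc17a7 and the second Camk2b probe was 0.890. Camk2a and Camk2b had r = 0.834 (permutation p = 0.00344, adjusted p = 0.0631) and rho = 0.879 (adjusted permutation p = 0.0326). It was 0.697 without the 2 farthest arrays, 0.842 on the first slide and 0.677 under quantile normalisation. Slc17a7 and Nrgn had r = 0.756 (permutation p = 0.0432, adjusted p = 0.210), which turned to -0.794 without the 2 farthest arrays and so rested on them. The second slide, with 2 arrays, gives no value of its own.

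Camk2a and Neurod1 also followed the brightness of the array. The median deviation of the 3395 brightest probes, the top 10%, correlated with the mean standardised level of the 9 members at r = 0.752 (permutation p = 0.0141, adjusted p = 0.0318, rho = 0.794, r = 0.796 without the 2 farthest arrays). It correlated with Camk2a at r = 0.918 (permutation p = 4e-05, adjusted p = 0.00018 over 9 relations, rho = 0.964) and with Neurod1 at r = 0.918 (permutation p = 4e-05, adjusted p = 0.00018, rho = 0.915). Camk2b reached r = 0.780 (adjusted permutation p = 0.0289) and Camk4 r = 0.709 (adjusted permutation p = 0.0389), and the latter fell to 0.417 without the 2 farthest arrays. In this paragraph these are the 2 arrays farthest from the median of the brightest-probe deviation. For Slc17a7, the second Camk2b probe and Nrgn the r was -0.375, -0.614 and -0.136 (adjusted permutation p = 0.394, 0.107 and 0.713). What the member levels share with the brightest probes was not tested further.

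The genes most like the members were sought among 13575 named genes well above background on all 10 arrays. The highest Pearson correlations with the mean standardised level of the 9 members were those of Chmp4b, an ESCRT-III subunit, at 0.990, Nrxn3, a presynaptic adhesion protein, at 0.977, Arhgdia at 0.967, Mlf2 at 0.966 and Ubap2 at 0.966. That mean level followed the scaled levels of the brightest probes, as given above, and whether these genes share more than that was not tested. Their differences between the groups were small, from 0.00 for Mlf2 to 0.04 for Chmp4b. The genes most like Slc17a7 alone were looked up after its values had been seen. They were Lmtk2 at 0.980, Cacnb1, a subunit of voltage-gated calcium channels, at 0.978, Eef1a2, the elongation factor of neurons and muscle, at 0.977, Lingo1, a neuronal membrane protein, at 0.972 and Clcn6 at 0.969. Eef1a2 differed by 0.48 (unadjusted p = 0.0322, adjusted p = 0.370 in limma), close to the Slc17a7 difference. It kept an r of 0.972 without the 2 arrays farthest from the Slc17a7 median. Cacnb1 and Lingo1 fell to 0.551 and 0.477.

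**Figure D4:**
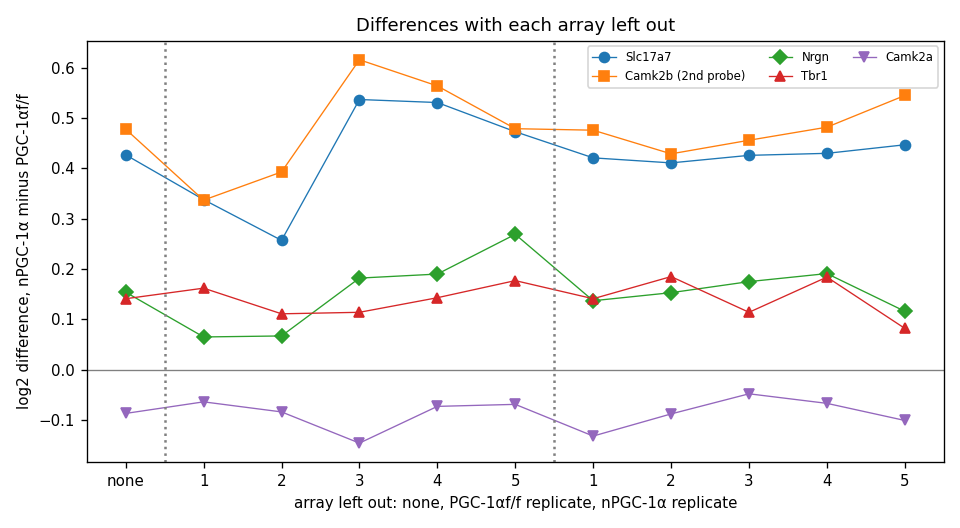
Log2 difference, nPGC-1α minus PGC-1αf/f (vertical axis), of 5 member probes with no array left out and with each array left out in turn (horizontal axis). Slc17a7 is lowest at 0.26 without PGC-1αf/f replicate 2, the second Camk2b probe is lowest at 0.34 without replicate 1, and none of these probes changes sign.

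Around the members, 52 other genes of glutamate supply, calmodulin signalling and the excitatory lineage were listed, and 45 had a tested probe. None passed an adjusted p of 0.05 in limma. At an unadjusted p of 0.05, 7 of 45 passed (15.6%), 5 higher and 2 lower in nPGC-1α mice, against 8.21% of all named genes with 1 probe per gene. A pair of the 7, Neurog2 and Slc17a8, entered the test only through the group in which they were brighter. Among the 43 genes well above background on all 10 arrays, 5 passed (11.6%), 4 higher and 1 lower, against 7.44% of all named genes so filtered. The transcription factors held 3 of those 4, and the median difference of their 18 genes was 0.08, against -0.03 over all probes so filtered.

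Emx1, a homeobox gene of the dorsal forebrain, had levels of -0.39, -0.08, -0.01, 0.01 and -0.32 in PGC-1αf/f replicates 1 to 5 and of 0.27, 0.08, 0.52, 0.29 and 0.07 in nPGC-1α replicates 1 to 5. The groups did not overlap, as for 2.74% of all probes with a value on every array. The difference was 0.40 (SE 0.12, unadjusted p = 0.00653, adjusted p = 0.242 in limma). Emx1 was past the unadjusted threshold in all 25 alternatives, with adjusted p-values from 0.0876 to 0.636.

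Cux2, a factor of upper cortical layers, differed by 0.36 (SE 0.13, unadjusted p = 0.0202, adjusted p = 0.323). Its PGC-1αf/f arrays ran from -2.65 to -2.26 and its nPGC-1α arrays from -2.37 to -1.66. The unadjusted call was lost without PGC-1αf/f replicate 4, where limma gave an unadjusted p of 0.0521. It was also lost with quantile normalisation, with normexp and quantile normalisation, on the slide with 8 arrays and with the Y-linked class as a covariate. The limma unadjusted p was 0.0559 to 0.0749 there. Neurog2, the proneural factor of the lineage, ran from -7.60 to -5.57 in PGC-1αf/f, where it was well above background on 4 arrays, and from -5.82 to -4.67 in nPGC-1α mice, where it was on all 5. Its difference of 0.95 rests in part on the dim array, replicate 1 of PGC-1αf/f, and was 0.62 without it, 0.43 without replicates 1 and 2 and 0.47 with normexp and quantile normalisation. Of the 7 tested neocortical markers, Cux2 included, 4 were higher and 3 lower, with a median difference of 0.02, and their mean deviation ran from -0.10 to 0.11 in PGC-1αf/f and from -0.02 to 0.07 in nPGC-1α mice. The part of neocortical tissue in the dissections was not tested beyond these values.

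Among the 18 tested calmodulin and CaM kinase genes, 8 were higher and 10 lower, with a median difference of -0.01. Camk1g, a kinase of the CaMKI family, differed by 0.40 (SE 0.16, unadjusted p = 0.0308, adjusted p = 0.367). It was low on PGC-1αf/f replicate 2 at -0.33 and at 0.17 to 0.62 on the other 4, against 0.57 to 0.77 in nPGC-1α mice. Without replicate 2 the difference was 0.26 (unadjusted p = 0.0521), and without replicates 1 and 2 it was 0.18 (unadjusted p = 0.146). The unadjusted call was also lost without PGC-1αf/f replicate 1 or 4 or nPGC-1α replicate 1 or 5 (unadjusted p of 0.0532 to 0.0634). With array weights and with the Y-linked class as a covariate it was lost too (limma unadjusted p of 0.0516 and 0.0567). A further Camk1g probe differed by 1.18, and the mean of both by 0.79. Creb1, which encodes the factor that CaMKIV phosphorylates, differed by -0.28 (SE 0.13, unadjusted p = 0.0471, adjusted p = 0.413). Its PGC-1αf/f replicates 1 and 2 stood at 1.08 and 0.95 and the other 3 at 0.54 to 0.58, against 0.29 to 0.59 in nPGC-1α mice, and with both left out the difference was -0.10 (unadjusted p = 0.326). Its unadjusted call was also lost without PGC-1αf/f replicate 1 or 2 or nPGC-1α replicate 2, 3 or 4 alone (unadjusted p of 0.076 to 0.1145). It was lost as well with quantile normalisation, with normexp and quantile normalisation, without the dim-probe filter, with the slide block and with array weights. The limma unadjusted p was 0.0547 to 0.275 there, and the exact Mann-Whitney test gave p = 0.151. The 3 further Creb1 probes differed by -0.66 to -0.10. The mean of all tested Creb1 probes differed by -0.29 (unadjusted p = 0.01015, adjusted p = 0.269 in limma). The calmodulin gene Calm3 differed by -0.11 and did not pass (adjusted p = 0.779).

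Of the 7 genes of glutamate supply well above background on all 10 arrays, 6 were higher and 1 lower, with a median difference of 0.05, and none passed the unadjusted threshold. The eighth, Slc17a8, which encodes VGLUT3, ran from -6.79 to -6.25 in PGC-1αf/f and from -7.17 to -6.55 in nPGC-1α mice, of which only 1 array cleared the background. Its difference of -0.37 was thus read largely against dim values, and it was -0.15 with quantile normalisation, -0.07 with normexp and quantile normalisation and -0.19 with the authors' log2 values. Slc17a6, which encodes VGLUT2, the transporter of thalamic and other subcortical neurons, had a difference of 0.28 that did not pass (adjusted p = 0.559). The transporter gene Slc1a1 differed by 0.01 (adjusted p = 0.963).

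**Figure D5:**
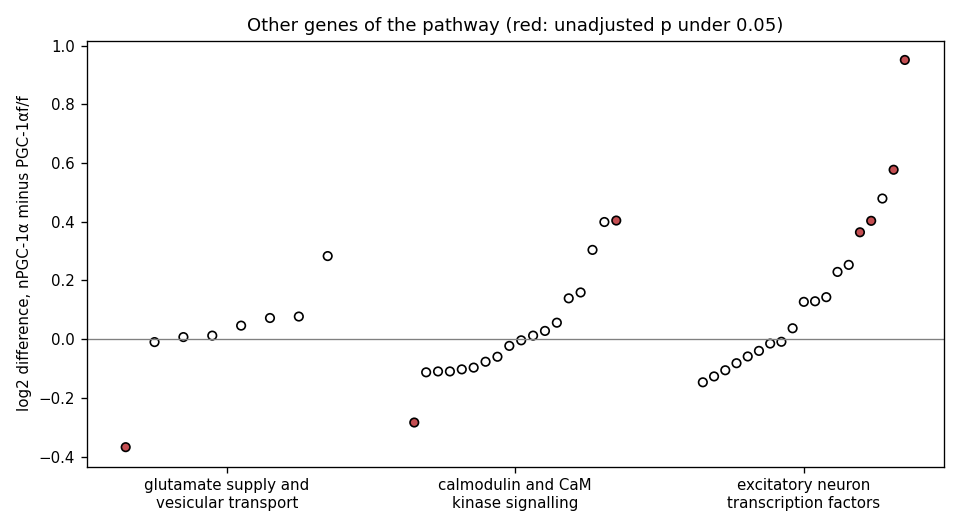
Log2 difference, nPGC-1α minus PGC-1αf/f (vertical axis), of the 45 tested genes in the 3 lists around the members (horizontal axis), with 1 point per gene and the 7 genes at an unadjusted p under 0.05 in red. Of the red points, 4 lie among the transcription factors, from 0.36 to 0.95, the highest being Neurog2, which was dim on 1 array, and none passed the adjusted test.

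Markers of other cell types were read beside these values. Of the 9 oligodendrocyte markers, 8 were higher in nPGC-1α mice, with a median difference of 0.23 and a mean deviation of -0.41 to 0.06 in PGC-1αf/f and -0.30 to 0.30 in nPGC-1α mice. Of the 8 astrocyte markers, 7 were lower with a median of -0.11, and of 6 tested microglia markers 4 were lower with a median of -0.15. The 11 inhibitory neuron markers were split 6 to 5 with a median of 0.01, and the 6 endothelial markers 3 to 3 with a median of 0.03. The 7 choroid plexus markers varied most between arrays, with a mean deviation of -1.01 to 1.70 in PGC-1αf/f and -0.85 to 2.22 in nPGC-1α mice. None of the tested markers in these lists passed the adjusted test, and their part in the member values was not tested.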

How the data were processed

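Agilent 1-colour arrays measured hippocampal RNA in 2 groups of 5 mice, PGC-1αf/f and nPGC-1α. Replicates are samples that the labels number separately. The deposited scanner files, from Feature Extraction 11.5.1.1 per the file headers, hold the processed intensity of each spot, background-subtracted and not normalised between arrays. A second deposited table holds log2 values made by the authors for 41606 probes, and served as an alternative. The methods name GeneSpring.

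Control and outlier spots were left out, no spot was saturated, log2 processed intensities were averaged per probe, and each array was scaled to its 75th percentile. The 39142 probes kept had a signal marked well above background throughout at least 1 group and at least 3 values in each. The difference between nPGC-1α and PGC-1αf/f, the former minus the latter, was tested two-sided with lmFit and eBayes (limma 3.58.1, R 4.3.3) without covariates, with Benjamini-Hochberg adjustment over all probes kept. Exact and 100000-resample permutation tests used scipy 1.17.1. The fit was tested on simulated data. The number of arrays limits the precision.

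RefSeq accessions named 59.6% of probes through a GRCm38.p6 table. The array was designed on another build, so no probe position is given. Where a gene had several tested probes, the one with the highest mean signal stood for it. The members and gene lists were chosen with earlier results of these data known. Named genes are the 9 members, Ppargc1a, Eno2, pathway genes at an unadjusted p under 0.05, of which 1 is counted but not reported here, and the 5 genes most correlated with the members. Calm3, Slc17a6, Slc1a1 and the genes most like Slc17a7 were added after values were seen. Alternatives changed the scaling, background correction (normexp with an offset of 50, on median pixel intensities because mean intensities are not in the files used), filter, outlier spots, slide, replicate number, array weights, variance model, Y-linked class, test, probe choice and arrays.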

Additional observations from a re-analysis of the deposited data

Results flagged for a closer look

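Single arrays stood far from the rest of their group in 2 of 21 groups of member values examined, and chance flags about 1 in 20. For the brighter Camk2a probe, A_52_P189707, PGC-1αf/f replicate 3 was at 3.46 and the other 4 arrays of the group at 3.71 to 3.79. For the other Camk2a probe, A_55_P2149209, PGC-1αf/f replicate 5 was at -2.394 and the other 4 at -1.43 to -1.18. The low array was not the same for both probes of the gene.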

How the results depend on the processing

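No member probe and no pathway gene passed the adjusted threshold in any of the alternatives computed for it, 24 for the member probes and 25 for the pathway genes. Slc17a7 (0.08 to 0.54), Tbr1 (0.08 to 0.20), the second Camk2b probe (0.18 to 0.63) and the 6 named pathway genes kept their direction in every alternative that gave a value. The number of member probes at an unadjusted p under 0.05, 1 as reported, was 2 with quantile normalisation, with normexp and quantile normalisation, with the authors' log2 values, with outlier spots kept, on the slide with 8 arrays, with trend and robust eBayes and with the Y-linked class as a covariate. It was 0 with array weights, with the exact Mann-Whitney test and without both PGC-1αf/f replicates 1 and 2 (a choice made after seeing the data), and 0 to 2 with each array left out. Where it was 2, the added probe was Slc17a7 with both quantile settings, trend and robust eBayes and the Y-linked covariate. The added probe was that of Tbr1 with the authors' values and the second Camk4 probe with outlier spots kept. The number of pathway genes, 7 as reported, was 4 with quantile normalisation, array weights, the Y-linked covariate and the exact Mann-Whitney test.

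The median member difference of -0.02 was 0.096 with normexp and quantile normalisation and 0.086 with the authors' values. The median over all tested probes was 0.026 and -0.021 in these settings. Single differences near 0 changed sign. With quantile normalisation Camk2a was 0.037, Camk2b 0.069, Camk4 0.00, Neurod1 0.006 and Neurod2 0.075. With normexp and quantile normalisation Camk2a was 0.019, Camk2b 0.096, Neurod1 0.002 and Neurod2 0.085. With the authors' values Camk2a was 0.034, Camk2b 0.049 and Neurod2 0.086. Neurod2 was 0.026 with outlier spots kept, and Camk2b was 0.231 as the mean of its probes. Without both PGC-1αf/f replicates 1 and 2, Camk4 was 0.022, Neurod6 -0.00 and Nrgn -0.082. With each array left out, the ranges that crossed 0 were -0.064 to 0.028 for Camk2b, -0.095 to 0.012 for Neurod1, -0.079 to 0.040 for Neurod2 and -0.026 to 0.027 for Neurod6. The causes were not tested. Neurod6 could not be computed without nPGC-1α replicates 2, 3 or 4, because fewer than 3 values were left.

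Same-numbered arrays of both groups deviated together with r of 0.078 to 0.356 and replicate 2 fell below 0.1, so that the numbers were not taken to pair the mice, and 3 of 5 arrays correlated best with their own number. With the replicate block, 0 member probes passed the adjusted threshold, 1 passed the unadjusted one, the member median was -0.015, and 0 and 7 pathway genes passed. Signal over background limited the second Tbr1 probe, Slc17a8 and Neurog2.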
